A study of Mus musculus with 10 samples.

Results

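The 45 genes described here are imprinted genes of the mouse, taken from 55536 genes in the deposited tables by matching the gene symbol to a fixed list and carrying the match over by Ensembl identifier. They lie in 19 loci, and all 45 had a row in the count table. RNA was sequenced from oocytes of fetal mouse ovaries at E16.5, in 5 libraries labelled Taf4b-heterozygous and 5 labelled Taf4b-deficient. TAF4b is a subunit of TFIID, the complex that recognises core promoters, and is enriched in gonads. Parents of both groups were homozygous for an Oct4-EGFP transgene, whose green fluorescence marks germ cells, and heterozygous for the Taf4b-deficiency mutation. The strain label is C57BL/6 for all libraries. Cells were sorted as green and negative for propidium iodide, a dye that enters dead cells. The controls therefore carry 1 mutated Taf4b allele, and no wild-type oocytes were analysed here. Whether a library holds 1 embryo or several, and whether the 5 of a genotype were from different embryos, is not stated in the labels. The p-values below therefore rest on library-to-library spread, which may be technical in part.

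An imprinted gene is transcribed mainly from the copy inherited from 1 parent, because DNA methylation laid down in the egg or the sperm marks a control region of the locus. Germ cells of the embryo erase the marks they inherited, and in females new marks are set only after birth, as oocytes grow. Fetal oocytes therefore pass through meiotic prophase with imprints erased, while the somatic cells of the ovary around them keep theirs. The counts carry no allele information, so a level below is the sum of both copies. The words "maternal" and "paternal" name the copy known to be the active one in at least some somatic tissues, not necessarily in the ovary.

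Total counts ran from 16707216 to 26983565 per library. Germ cell markers were high in every library, with a summed level of 5629 to 7862 CPM (counts scaled to the size and composition of the library) over 10 markers in heterozygous libraries and 5040 to 7505 CPM in deficient libraries. Pou5f1, which encodes OCT4, was at most 0.458 CPM in heterozygous libraries against 1.16 CPM in deficient ones, so the gene behind the sorting transgene was itself near 0 in RNA. Taf4b measured 271, 290, 142, 65.7 and 101 CPM in heterozygous libraries 1 to 5 and 80.7, 81.7, 80.2, 73.7 and 58.2 CPM in deficient libraries 1 to 5. The library labelled heterozygous 4 thus lay inside the deficient range. The libraries labelled heterozygous 4 and 5 and deficient 5 also held the most erythroid RNA, with Hba-a1, a globin gene, at 260, 798 and 590 CPM against at most 102 CPM elsewhere. In sorted bulk RNA, fewer cells of a type and less RNA per cell cannot be told apart.

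Sequences are shown for the members that the authors' deposited comparison of the genotypes called and that have a RefSeq entry, since these carry the genotype result. Promoter windows, from 250 bases before to 50 bases after the annotated start on GRCm38.p6, were found for 36 of the 45 members. Capitals mark CCAAT, the box bound by NF-Y, or its reverse complement ATTGG, in the windows of Peg3 (chr7:6730370-6730669, minus strand), Kcnq1ot1 (chr7:143296498-143296797, minus strand) and Tssc4 (chr7:143069118-143069417, plus strand), and GGGCGG, the GC box bound by SP factors, in that of Igf2r (chr17:12769657-12769956, minus strand).
Peg3: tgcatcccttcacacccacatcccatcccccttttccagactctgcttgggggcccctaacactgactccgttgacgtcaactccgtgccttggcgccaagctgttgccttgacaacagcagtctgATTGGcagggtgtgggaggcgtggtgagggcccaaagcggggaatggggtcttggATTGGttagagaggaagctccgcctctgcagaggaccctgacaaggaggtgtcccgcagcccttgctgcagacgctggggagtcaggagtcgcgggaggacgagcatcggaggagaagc
Kcnq1ot1: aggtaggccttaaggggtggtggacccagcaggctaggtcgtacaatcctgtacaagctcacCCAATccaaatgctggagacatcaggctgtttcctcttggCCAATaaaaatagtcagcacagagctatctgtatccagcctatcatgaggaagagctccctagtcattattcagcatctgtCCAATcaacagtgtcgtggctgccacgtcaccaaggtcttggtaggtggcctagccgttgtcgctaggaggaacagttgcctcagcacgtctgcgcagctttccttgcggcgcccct
Tssc4: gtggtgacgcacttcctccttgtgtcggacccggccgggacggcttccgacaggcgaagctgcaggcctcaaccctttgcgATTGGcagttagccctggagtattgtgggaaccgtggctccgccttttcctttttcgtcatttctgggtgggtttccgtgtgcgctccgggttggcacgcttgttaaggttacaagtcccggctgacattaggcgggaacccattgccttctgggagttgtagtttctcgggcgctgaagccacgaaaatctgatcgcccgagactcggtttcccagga
Igf2r: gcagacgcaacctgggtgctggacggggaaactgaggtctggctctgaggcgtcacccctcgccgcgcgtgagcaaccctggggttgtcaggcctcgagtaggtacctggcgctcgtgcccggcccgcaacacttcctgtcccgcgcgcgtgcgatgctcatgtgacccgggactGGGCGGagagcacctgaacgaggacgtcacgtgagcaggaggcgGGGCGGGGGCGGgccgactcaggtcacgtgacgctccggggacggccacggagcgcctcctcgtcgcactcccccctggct

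Peg3 held 2 CCAAT boxes, Kcnq1ot1 held 3, Tssc4 held 1, and Igf2r held 3 GC boxes. Searched on both strands, CCAAT occurred in 18 of the 36 matched members (50% against 41.1% of 27025 genes with a window), and GGGCGG in 21 (58.3% against 38.2%). The hexamer TGCCGC, which the imprint-protecting protein ZFP57 binds when methylated, occurred in 11 (30.6% against 13.1%), and TATAAA in 11 (30.6% against 15.7%). The median number of CpG dinucleotides per window was 17 in the members and 8 over all genes. These matches describe letters in a window and are not evidence of binding.

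H19 has no promoter entry in the table used, but its exonic microRNA miR-675 has mature sequences, shown because H19 is the host transcript and the member with the smallest p. They lie on the minus strand at chr7:142577112-142577133 and chr7:142577078-142577099 (GRCm38.p6), with the seed, bases 2 to 8, in capitals.
mmu-miR-675-5p: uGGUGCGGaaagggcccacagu
mmu-miR-675-3p: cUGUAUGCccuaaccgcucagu

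The Mir675 row had 0 counts in all 10 libraries. Reads from an exonic microRNA cannot be assigned apart from those of its host, so this says nothing about the mature microRNA.

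Levels of the members were compared per length, as TPM (a relative level scaled for transcript length and library size) recomputed from the counts and annotated exon lengths. Of 45 members, 17 averaged over 10 TPM, 16 lay between 1 and 10 TPM, and 12 were below 1 TPM. The median of the 42 members that passed the filter on low counts was 4.43 TPM, against 8.50 TPM for all genes tested. Copg2, a coatomer subunit, had the highest mean at 119 TPM (SD 25.6, n = 10), followed by Tssc4, a spliceosome assembly factor, at 107 TPM (SD 31.9). Their ranges overlapped, as did those of the next members, Blcap at 81.1 TPM (SD 18.9) and Cdkn1c, a cyclin-dependent kinase inhibitor, at 79.3 TPM (SD 20.1). At the other end stood Rian at 0.263 TPM, Magel2 at 0.0989 TPM and Rtl1 at 0.0299 TPM. The plot of levels by library shows this order.

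**Figure D1:**
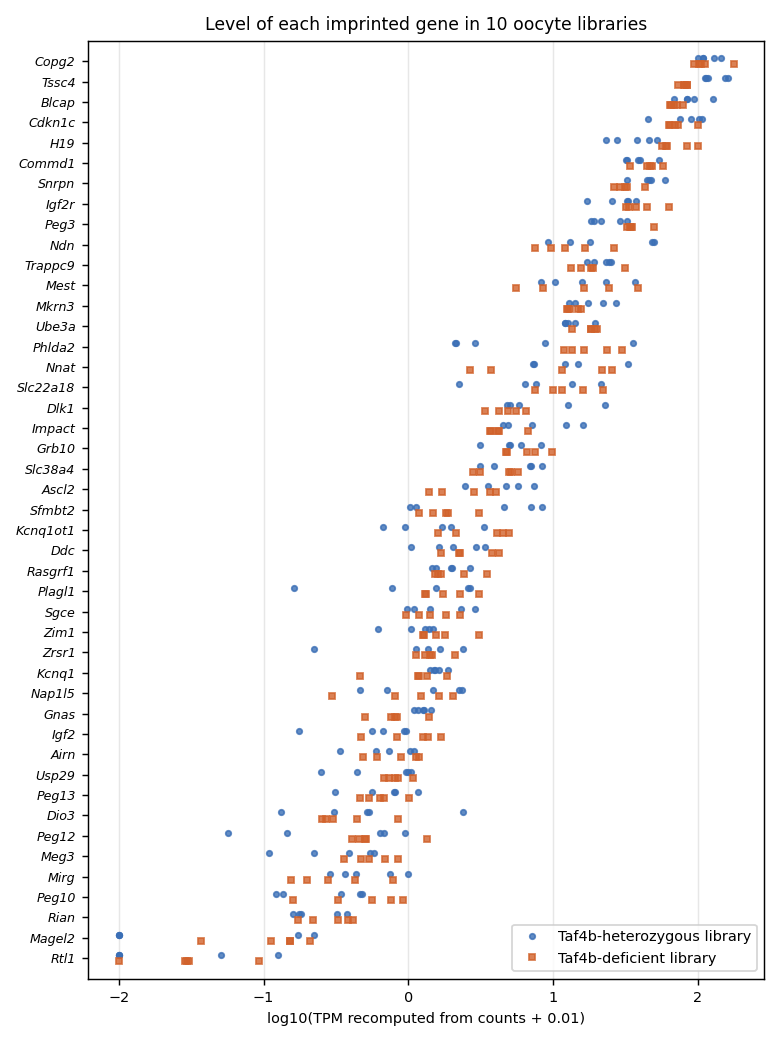
Level of each of the 45 imprinted genes in every library, on a log10 axis of TPM recomputed from counts plus 0.01, with circles for heterozygous and squares for deficient libraries. Genes are ordered by mean, from Copg2 (119 TPM) to Rtl1 (0.0299 TPM), and most rows show the genotypes interleaved.

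Spread between libraries was wide. The median log2 range from the lowest to the highest library was 1.64 over the tested members and 1.41 over all genes tested. Phlda2 had the widest range at 3.69, followed by Plagl1 at 3.25 and Nnat at 3.13.

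Between the genotypes, H19 and Peg3 were higher in every deficient library than in any heterozygous library, and Tssc4 was lower in every deficient library. No member passed the test across all genes at an adjusted p under 0.05 in edgeR's quasi-likelihood test (0 of 42 tested), and neither did any other gene (0% of 19244). At an unadjusted p under 0.05, 9 of 42 members differed (21.4%), against 16.6% of all genes tested. Of these 6 were higher in deficient libraries (14.3%, against 7.45% of all genes) and 3 were lower (7.14%, against 9.13%). Genotypes did not overlap for 3 of 42 members (7.14%, against 3.53%), with 2 higher (against 1.94%) and 1 lower (against 1.6%). The median log2 fold change, deficient over heterozygous, was 0.14 over the 42 members, of which 23 were positive and 19 negative, and -0.02 over all genes. The 7 loci that held these 9 members are described first by locus.

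The authors' deposited table, a DESeq2 comparison, called 5 of the 45 members at an adjusted p under 0.05 (11.1%, against 3.76% of its 31181 genes). It called H19, Peg3, Igf2r and Kcnq1ot1 as higher (against 1.83% of genes called higher) and Tssc4 as lower (against 1.92%). A DESeq2 fit of the counts with a covariate of 3 levels, which are not the litter dates of the labels, rebuilt that table's fold changes to within 0.00555 on the log2 scale. The first level holds heterozygous 1 and deficient 1 and 2, the second heterozygous 2 and 3 and deficient 3 and 4, and the third heterozygous 4 and 5 and deficient 5, the libraries rich in globin RNA. Without the third level, 10 of 42 members had an unadjusted p under 0.05 in edgeR (23.8%, against 12.7% of all genes), and 8 of 42 did not overlap between genotypes, against 11.3% of all genes.

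Both members of the Igf2-H19 locus on chromosome 7 had a higher mean in deficient libraries, and H19 was the member with the smallest p. H19 (ENSMUSG00000000031, chr7:142575529-142578143) is a noncoding RNA expressed from the maternal copy in somatic tissue, where it is abundant in the fetus. Its level was 26.3, 29.5, 20.7, 40.9 and 40.1 CPM in heterozygous libraries 1 to 5 and 72.9, 54.8, 53.4, 53.1 and 87.5 CPM in deficient libraries 1 to 5. All deficient libraries lay above all heterozygous ones. The log2 fold change was 1.03 (SE 0.23, unadjusted p = 0.000627, adjusted p = 0.116 in edgeR), and 1.13 in the authors' deposited table (adjusted p = 4.12e-07 there). Within the 3 litter dates the difference of mean log2 CPM was 1.37, 0.88 and 0.76, and within the 3 levels of the deposited grouping 1.25, 1.09 and 1.10. The sign of these differences was fixed in advance by the lack of overlap. The first date held 2 heterozygous libraries and 1 deficient, the second 2 of each, and the third 1 heterozygous and 2 deficient. H19 had an unadjusted p under 0.05 in 24 of 24 alternatives, and passed at an adjusted p under 0.05 in 3 of them, with adjusted p from 0.00821 to 0.961 over all.

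H19 is known to be transcribed in many fetal somatic tissues, so markers of ovarian somatic cells are given beside it. The summed level of 13 pregranulosa markers was 58.3, 66.5, 46.6, 123 and 117 CPM in heterozygous libraries 1 to 5 and 68.4, 40.4, 160, 58.4 and 131 CPM in deficient libraries 1 to 5. These ranges overlapped. None of the 13 markers was at 0 in any library, and 2 of 13 (Wnt4 and Fst, chosen after their values were seen) had an unadjusted p under 0.05 and were higher in deficient libraries (15.4%, against 7.45% of all genes higher and 16.6% in either direction). By sign alone, 10 of 13 pregranulosa, 8 of 10 stroma and 7 of 9 endothelial markers had a positive fold change. Among macrophage markers 0 of 9 were positive, among surface epithelium markers 1 of 6, and among erythroid markers 0 of 6. Germ cell markers had 2 of 9 positive. Of these 9, 2 were lower in deficient libraries at an unadjusted p under 0.05 (22.2%, against 9.13% of all genes). Foxl2, a defining marker of pregranulosa cells, averaged 1.08 CPM in heterozygous libraries against 2.74 CPM in deficient ones, with overlapping ranges. The authors' deposited table called Foxl2 (log2 fold change 1.76, adjusted p = 0.0375) and Fst (1.33, adjusted p = 0.0401) as higher, and of the stroma markers Col1a2 (1.16, adjusted p = 0.00282). That table also called 1 of 9 endothelial markers higher (against 1.83% of genes). It called 4 of 9 macrophage markers and 2 of 10 germ cell markers lower (against 1.92%). Ovarian stroma markers summed to 20.7 to 77.5 CPM in heterozygous libraries against 21.2 to 108 CPM in deficient ones. Endothelial markers summed to 32.8 to 118 CPM and 29.6 to 108 CPM in the same order. The part of these cells in the H19 difference was not tested.

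**Figure D2:**
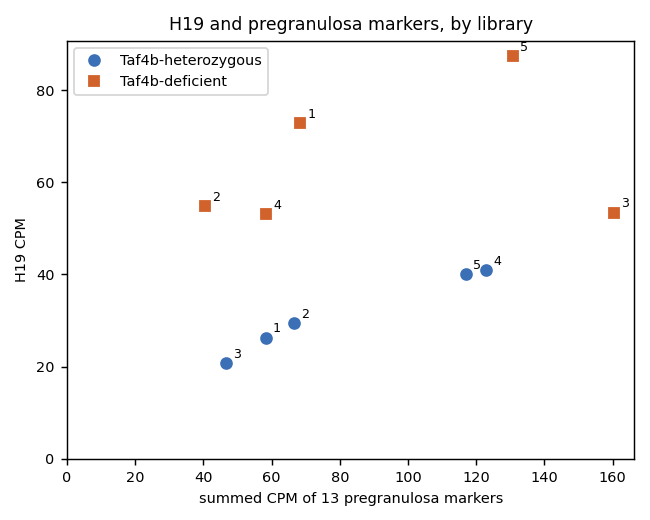
H19 in CPM against the summed CPM of 13 pregranulosa markers, 1 point per library with its replicate number, circles for heterozygous and squares for deficient libraries. Deficient libraries lie between 53.1 and 87.5 CPM of H19 at marker sums from 40.4 to 160 CPM, and heterozygous libraries between 20.7 and 40.9 CPM at 46.6 to 123 CPM.

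Igf2, the growth factor gene that shares enhancers with H19 and is expressed from the paternal copy, was at 0.882 TPM on average (0.167 to 1.67 TPM), against 55.1 TPM for H19 (23.2 to 101 TPM). It measured 0.346 to 2.11 CPM in heterozygous libraries against 0.981 to 3.40 CPM in deficient ones, and the ranges overlapped. Of its exon bases, 64.5% are shared with other annotated genes, so its count is uncertain.

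At the Kcnq1 locus on chromosome 7, the members differed in direction, with Kcnq1ot1 higher and Tssc4 lower in deficient libraries. Kcnq1ot1 (ENSMUSG00000101609, chr7:143203458-143296549) is a long noncoding RNA read antisense to Kcnq1 from the control region, and on the paternal copy it silences neighbouring genes. Its level was 120, 57.9, 57.5, 27.4 and 21.4 CPM in heterozygous libraries 1 to 5 and 134, 170, 71.0, 160 and 52.4 CPM in deficient libraries 1 to 5. The ranges overlapped, since heterozygous 1 exceeded deficient 3 and 5, and heterozygous 4 and 5 were the lowest of all. Deficient over heterozygous, this gave a log2 fold change of 1.05 (SE 0.45, adjusted p = 0.268 in edgeR), and 0.81 in the authors' deposited table (adjusted p = 0.0221). It was positive within all 3 litter dates (0.68, 1.46 and 2.07) and all 3 levels of the deposited grouping (0.33, 0.88 and 1.09). The gene lies inside Kcnq1 on the opposite strand, and because the strand setting of the counting is not known here, reads from introns of Kcnq1 cannot be told apart from Kcnq1ot1.

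Tssc4 (ENSMUSG00000045752, chr7:143069249-143071093), at the far side of the same domain, had 84.0, 66.2, 109, 90.5 and 73.0 CPM in heterozygous libraries 1 to 5 and 53.6, 58.3, 52.4, 51.5 and 54.7 CPM in deficient libraries 1 to 5. Every deficient library was below every heterozygous library, and the deficient values were closely grouped (mean 54.1 CPM, SD 2.64, n = 5). The log2 fold change was -0.64 (SE 0.17, adjusted p = 0.145 in edgeR), and -0.68 in the authors' deposited table (adjusted p = 0.0160). Within the litter dates the difference for Tssc4 was -0.47, -0.84 and -0.45, a sign fixed in advance by the lack of overlap.

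Phlda2, which limits placental growth, is named here after its values were seen, because 1 library decided its result. It measured 15.6, 0.744, 1.17, 3.12 and 0.824 CPM in heterozygous libraries 1 to 5 and 9.38, 6.87, 5.35, 12.8 and 4.70 CPM in deficient libraries 1 to 5. Heterozygous 1 was the highest of all 10 libraries, and the other heterozygous libraries lay below every deficient one. With all libraries the log2 fold change was 0.87 (SE 0.73, adjusted p = 0.572 in edgeR). Without heterozygous 1 it was 2.42 (adjusted p = 0.0361 in edgeR, with a range of 0.0361 to 0.976 over the alternatives), and Phlda2 was then the 1 member called of those tested, against 3.07% of all genes.

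Of the other members of the domain, Cdkn1c, the growth inhibitor silenced by Kcnq1ot1 on the paternal copy, measured 29.1 to 75.3 CPM in heterozygous libraries against 46.5 to 72.5 CPM in deficient ones. A gene annotated on the opposite strand shares 30.7% of Cdkn1c exon bases, so its count is uncertain. Slc22a18, a transporter gene, ranged from 1.33 to 14.0 CPM and from 4.48 to 14.3 CPM in the same order. Kcnq1, a potassium channel gene, averaged 2.22 CPM and 1.77 CPM. Ascl2, a transcription factor of the trophoblast, averaged 2.72 CPM and 1.61 CPM. The genotypes overlapped for these 4 members.

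Igf2r had a higher mean in deficient libraries, and its antisense partner Airn was low in all. Igf2r (ENSMUSG00000023830, chr17:12682406-12769664) encodes the receptor that takes IGF2 to the lysosome, and is expressed from the maternal copy. It measured 62.0, 110, 85.8, 97.2 and 106 CPM in heterozygous libraries 1 to 5 and 106, 129, 208, 120 and 146 CPM in deficient libraries 1 to 5. Only deficient 1 fell within the heterozygous range, and deficient 3 was the highest. Its log2 fold change was 0.62 (SE 0.22, adjusted p = 0.207 in edgeR), and 0.72 in the authors' deposited table (adjusted p = 0.0144). Without deficient 3 it was 0.44 in edgeR. Airn, the noncoding RNA that silences Igf2r on the paternal copy, measured 0.372 to 1.28 CPM in heterozygous libraries against 0.604 to 1.49 CPM in deficient ones. Airn overlaps Igf2r on the opposite strand, so its reads cannot be told apart from those of Igf2r introns.

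At the Peg3 locus on chromosome 7, Peg3 and Zim1 had higher means in deficient libraries. Peg3 (ENSMUSG00000002265, chr7:6703892-6730431) encodes a zinc finger protein and is expressed from the paternal copy. Its level was 99.1, 136, 88.8, 121 and 101 CPM in heterozygous libraries 1 to 5 and 161, 162, 238, 176 and 164 CPM in deficient libraries 1 to 5. The genotypes did not overlap. The log2 fold change was 0.72 (SE 0.19, adjusted p = 0.145 in edgeR), and 0.72 in the authors' deposited table (adjusted p = 0.00672). Deficient 3 stood apart from the other 4 deficient libraries, and without it the log2 fold change was 0.60.

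Zim1 (ENSMUSG00000002266, chr7:6671269-6696450), a neighbouring zinc finger gene expressed from the maternal copy, was at 3.21, 3.53, 1.77, 3.74 and 3.66 CPM in heterozygous libraries 1 to 5 and 3.58, 4.66, 8.80, 3.93 and 5.06 CPM in deficient libraries 1 to 5. The ranges overlapped. For Zim1 the log2 fold change was 0.71 (SE 0.32, adjusted p = 0.286 in edgeR), and 0.44 without deficient 3. Usp29, a ubiquitin-specific protease gene that starts beside Peg3 on the other strand, measured 1.56 to 6.05 CPM in heterozygous libraries against 4.60 to 6.77 CPM in deficient ones.

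Across the Snrpn-Ube3a domain of chromosome 7, Ube3a, labelled maternal for its expression in some tissues, was the member with an unadjusted p under 0.05. Ube3a (ENSMUSG00000025326, chr7:59228750-59311536) encodes an E3 ubiquitin ligase. It measured 112, 127, 94.2, 78.3 and 88.3 CPM in heterozygous libraries 1 to 5 and 142, 140, 135, 158 and 97.6 CPM in deficient libraries 1 to 5. Deficient 5 fell within the heterozygous range, and the other deficient libraries lay above it. Its log2 fold change was 0.43 (SE 0.19, adjusted p = 0.286 in edgeR). Genes annotated on the opposite strand, Snhg14 among them, share 27.3% of Ube3a exon bases. With the strand setting unknown, the Ube3a count is therefore uncertain. Of the paternally expressed genes, Snrpn, a spliceosomal protein gene, averaged 34.6 CPM (SD 8.47) in heterozygous libraries against 25.5 CPM (SD 5.90) in deficient ones, with overlap. Other annotated genes share 34.1% of Snrpn exon bases, so its count is uncertain too. Ndn, which encodes necdin, was at 58.1 and 62.7 CPM in heterozygous 4 and 5 and at most 34.2 CPM in the other libraries. Mkrn3, a makorin ring finger gene, measured 12.6 to 25.1 CPM in heterozygous libraries against 11.2 to 14.0 CPM in deficient ones. Peg12 was at most 1.23 CPM. Magel2, a relative of Ndn, was at most 0.383 CPM and was not tested.

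Impact and Dlk1 had lower means in deficient libraries, and for both the highest values were in the libraries labelled heterozygous 4 and 5. Impact (ENSMUSG00000024423, chr18:12955852-12992950), an inhibitor of GCN2 activation, measured 8.91, 11.6, 9.04, 26.3 and 22.1 CPM in heterozygous libraries 1 to 5 and 7.48, 6.99, 7.73, 7.31 and 12.0 CPM in deficient libraries 1 to 5. Deficient 5 alone reached into the heterozygous range. Taf4b lies on the same chromosome (chr18:14783245-14900359). For Impact, the genotype and sequence inherited with the mutated Taf4b allele therefore cannot be told apart. The log2 fold change was -0.91 (SE 0.33, adjusted p = 0.214 in edgeR), and -0.42 without the third level of the deposited grouping.

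Dlk1 (ENSMUSG00000040856, chr12:109452823-109463336), a transmembrane protein gene related to NOTCH ligands, measured 10.9, 8.60, 11.9, 22.7 and 45.1 CPM in heterozygous libraries 1 to 5 and 8.45, 7.05, 9.87, 14.0 and 11.0 CPM in deficient libraries 1 to 5. The ranges overlapped. A log2 fold change of -0.98 was fitted (SE 0.41, adjusted p = 0.265 in edgeR). Without the third level of the deposited grouping it was -0.09, with means of 9.95 CPM over 3 heterozygous libraries against 9.37 CPM over 4 deficient ones. Of the 3 libraries rich in globin RNA, deficient 5 had 590 CPM of Hba-a1 and 11.0 CPM of Dlk1. The 10 germ cell markers summed to 5658 and 7598 CPM in heterozygous 4 and 5, within the 5040 to 7862 CPM of the other libraries. Dppa3, of that list, was at 19.3 and 114 CPM in heterozygous 4 and 5 and at 1.86 to 24.9 CPM in the others. Nobox and Stra8, 2 of the 10 markers chosen after their values were seen, did set heterozygous 4 and 5 apart. Nobox, a transcription factor gene of oocytes entering follicles, was at 84.8 and 166 CPM there and at most 16.9 CPM in the other 8 libraries, deficient 5 included at 5.36 CPM. Stra8, a gene of meiotic entry, was at 56.3 and 10.3 CPM there and at 156 to 965 CPM in the others. The part of erythroid RNA, or of what Nobox and Stra8 mark, in the differences of Impact and Dlk1 was not tested.

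**Figure D3:**
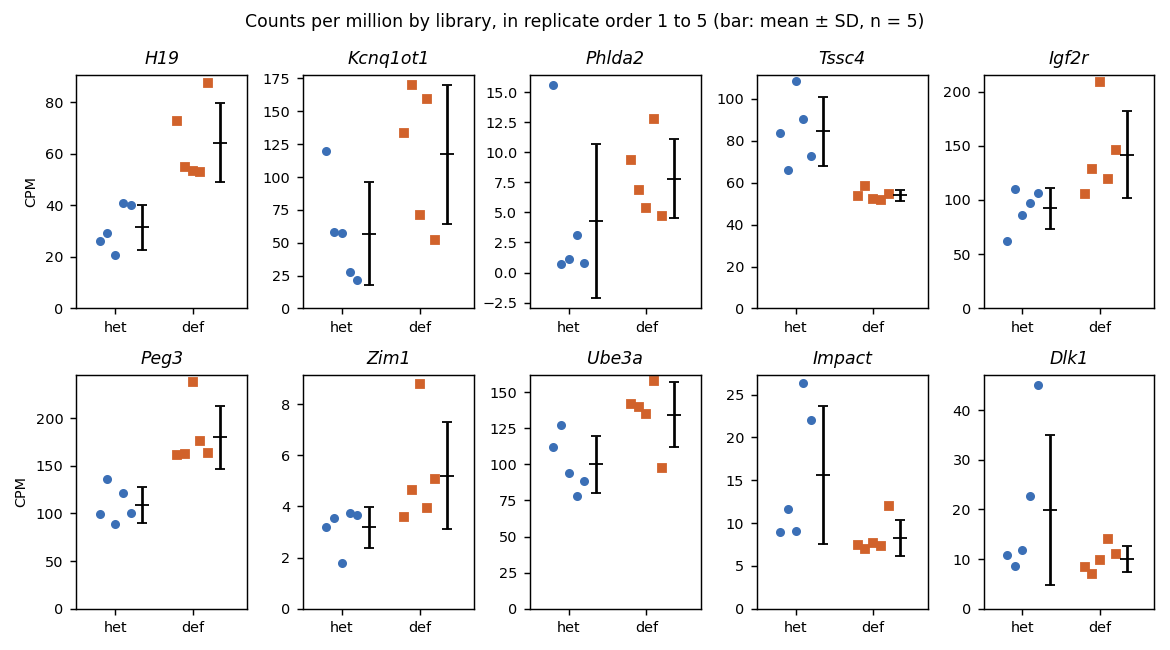
CPM of the 9 members with an unadjusted p under 0.05 and of Phlda2, 1 point per library in replicate order, with mean and SD bars (n = 5 per genotype). H19, Peg3 and Tssc4 are the panels with no overlap between genotypes, and Dlk1 and Impact are highest in heterozygous 4 and 5.

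The rest of the Dlk1-Dio3 domain was low. Its maternally expressed noncoding RNAs measured 0.648 to 3.39 CPM in heterozygous libraries against 2.23 to 5.39 CPM in deficient ones for Meg3. Rian, host of C/D snoRNAs, ranged from 0.994 to 2.09 CPM and from 1.13 to 2.60 CPM, and Mirg, host of microRNAs, from 0.735 to 2.27 CPM and from 0.406 to 2.09 CPM. Dio3, a thyroid hormone deiodinase gene, reached 1.69 CPM in heterozygous 5 and at most 0.604 CPM elsewhere. Rtl1, a retrotransposon-derived gene, was at most 0.232 CPM, and neither Dio3 nor Rtl1 was tested.

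No member of the remaining 12 loci had an unadjusted p under 0.05. Grb10, an adaptor that dampens insulin and IGF receptor signalling, measured 11.0 to 23.7 CPM in heterozygous libraries against 16.2 to 31.7 CPM in deficient ones, and Ddc, its neighbour, 1.44 to 5.80 CPM and 2.64 to 7.18 CPM. Commd1, an endosomal trafficking gene, measured 61.2 to 123 CPM and 70.8 to 131 CPM, and Zrsr1, the retrogene in its intron, 0.346 to 3.76 CPM and 1.94 to 3.30 CPM. Plagl1, a zinc finger transcription factor gene, ranged from 0.432 to 7.10 CPM and from 3.74 to 8.41 CPM.

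Mest, a hydrolase-like gene, varied from 11.9 to 50.9 CPM in heterozygous libraries and from 8.16 to 53.7 CPM in deficient ones, while Copg2, whose end overlaps it on the other strand, varied from 176 to 242 CPM and from 170 to 323 CPM. Peg10, a retrotransposon-derived gene, was at most 2.14 CPM, and its neighbour Sgce ranged from 3.72 to 9.70 CPM and from 3.74 to 8.44 CPM. Nnat, which encodes neuronatin and lies in an intron of Blcap, averaged 9.08 CPM (SD 5.76) and 8.58 CPM (SD 6.64), and Blcap from 73.3 to 140 CPM and from 69.4 to 86.2 CPM. Within this set of loci the genotypes overlapped for each gene.

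Sfmbt2, a Polycomb-related gene, was at 24.1 and 22.6 CPM in heterozygous 4 and 5, at 3.37 to 13.1 CPM in heterozygous 1 to 3 and at 3.81 to 10.0 CPM in deficient libraries. Gnas, which encodes the stimulatory G protein alpha subunit among other transcripts, measured 4.42 to 5.01 CPM in heterozygous libraries and 2.12 to 5.45 CPM in deficient ones. Slc38a4, an amino acid transporter gene, ranged from 4.84 to 13.8 CPM and from 4.18 to 9.39 CPM. Rasgrf1, a Ras exchange factor gene, ranged from 5.84 to 11.4 CPM and from 5.94 to 14.4 CPM. Trappc9 ranged from 52.4 to 67.1 CPM and from 39.6 to 88.8 CPM, and Peg13, inside it, was at most 1.72 CPM. Nap1l5 was at most 1.58 CPM.

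**Figure D4:**
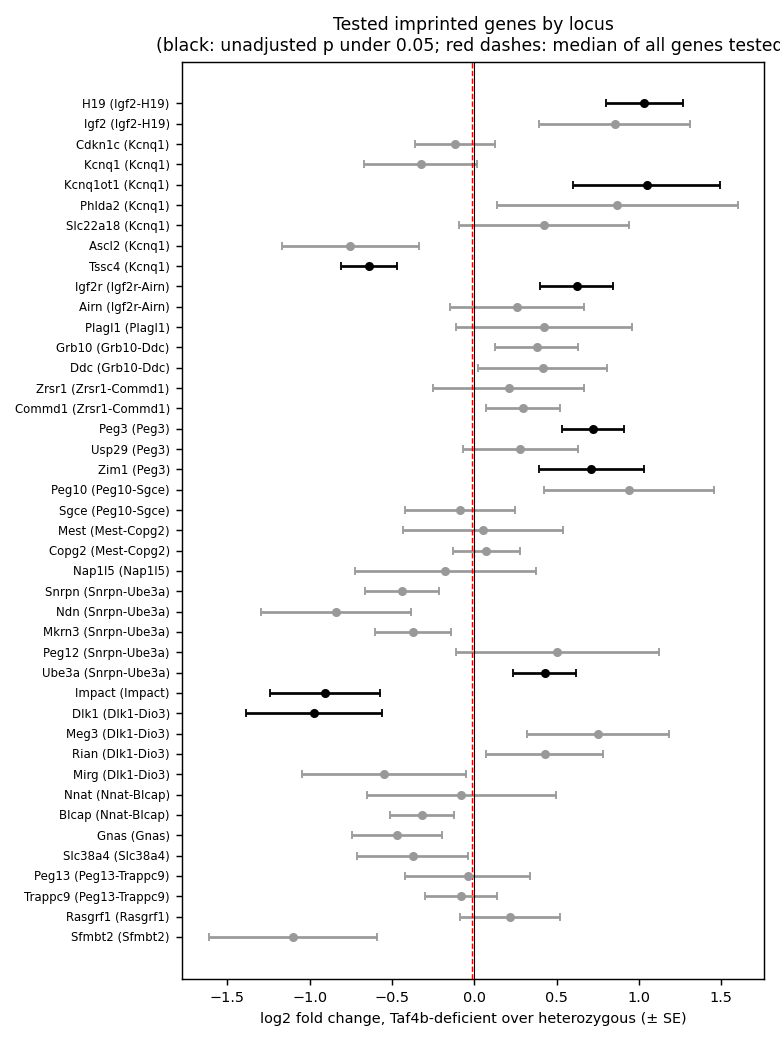
Log2 fold change, deficient over heterozygous, with its SE from edgeR, for the 42 tested members by locus. Black points are the 9 members with an unadjusted p under 0.05, and the dashed line is the median of all genes, -0.02.

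Members were also grouped by the parental copy active in at least some somatic tissues, which need not hold in the ovary. Of 18 tested members of the maternal copy, 4 were higher (22.2%, against 7.45% of all genes) and 1 was lower (5.56%, against 9.13%) at an unadjusted p under 0.05. Their median log2 fold change was 0.34. Of 23 tested members of the paternal copy, 2 were higher and 2 lower, with a median of 0.05. Their share in either direction, 17.4%, was near the 16.6% of all genes. No test was made of the difference between these sets.

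Single libraries stood out across members. Deficient 3 was the highest library for 9 of 42 members (21.4%, against 11.8% of all genes), among them Igf2, Igf2r, Grb10, Peg3, Zim1 and Peg10, and it also had the highest sums of pregranulosa (160 CPM) and stroma (108 CPM) markers. Whether these move together beyond that library was not tested. Heterozygous 4 and 5 were the 2 highest libraries for Sgce, Ndn, Impact, Dlk1 and Sfmbt2 (11.9%, against 14.4% of all genes), and the 2 lowest for Kcnq1ot1, Slc22a18, Commd1 and Ube3a (9.52%, against 15.8%). The plot across libraries shows these columns.

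**Figure D5:**
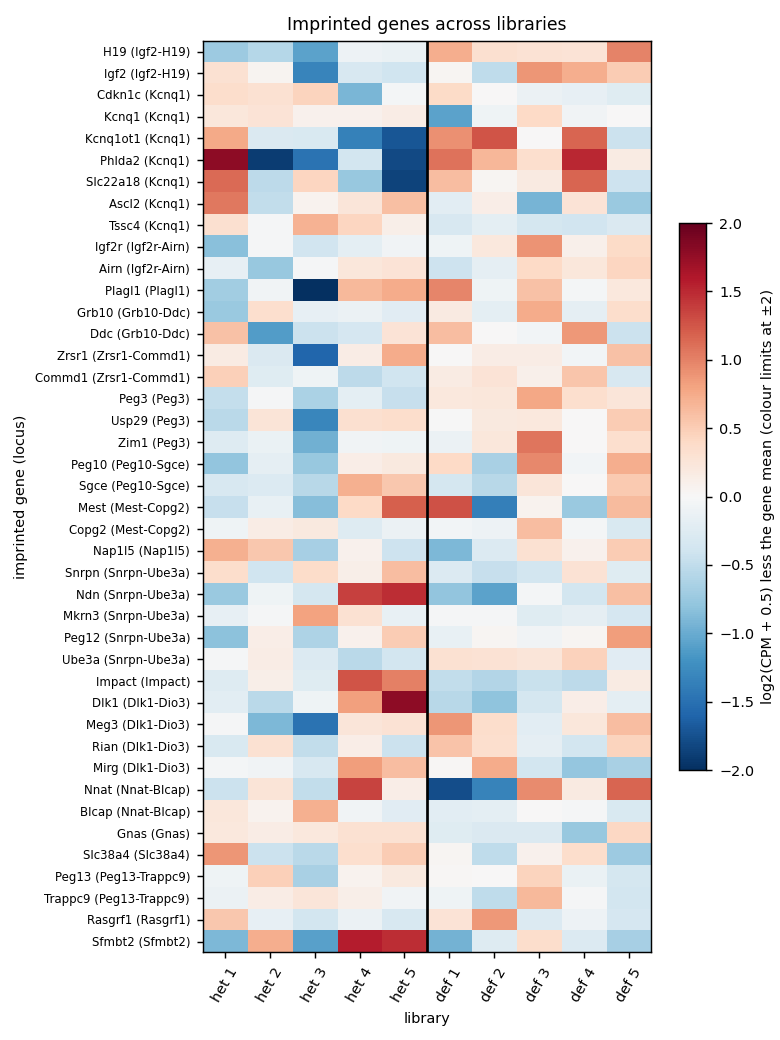
Log2(CPM + 0.5) of each of the 42 tested members less its mean, by library, with colours limited at 2 either way. The row of H19 is blue or near white in heterozygous and red in deficient libraries, and heterozygous 4 and 5 are red for Ndn, Impact, Dlk1 and Sfmbt2.

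Genes that set or protect imprints, together with Tet1, Tet2 and Tet3 of DNA demethylation, were read beside the members. The list held 26 genes, of which 24 were tested. At an unadjusted p under 0.05, 4 were higher in deficient libraries (Trim28, Setd2, Kdm1a and Tet2, 16.7%, against 7.45% of all genes). Another 3 were lower (Kdm1b, Uhrf1 and Arid4a, 12.5%, against 9.13%). None of the 24 passed at an adjusted p under 0.05 in edgeR. The authors' deposited table called 3 higher (Trim28, Setd2 and Kdm1a) and 2 lower (Kdm1b and Uhrf1). Kdm1b, the histone demethylase that oocytes need to set maternal imprints, averaged 68.6 CPM (SD 18.6, n = 5) in heterozygous libraries against 34.4 CPM (SD 8.64, n = 5) in deficient ones, with a log2 ratio of -0.995 (SE 0.23, adjusted p = 0.116 in edgeR). Uhrf1, which brings DNMT1 to replicated DNA, averaged 212 CPM (SD 61.4) and 108 CPM (SD 29.2), a log2 fold change of -0.97 (SE 0.25, adjusted p = 0.145 in edgeR). Trim28, the corepressor that ZFP57 recruits to imprinted control regions, averaged 116 CPM (SD 30.3) and 197 CPM (SD 22.3), with no overlap between genotypes. Setd2, a histone H3 lysine methyltransferase, averaged 46.6 CPM (SD 8.67) and 76.1 CPM (SD 12.3), also with no overlap. Kdm1a, a relative of Kdm1b, averaged 54.2 CPM (SD 38.2) and 108 CPM (SD 27.1), with overlap. Dnmt3l, the cofactor of imprint establishment, was at most 0.418 CPM and Zfp57 at most 2.15 CPM, and neither was tested.

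A further list held 40 imprinted genes outside the 45, of which 39 were found and 27 tested. At an unadjusted p under 0.05, 1 was higher and 3 were lower in deficient libraries (14.8% in either direction, against 16.6% of all genes), and the authors' deposited table called none, against 3.76% of its genes. The smallest p was that of Qpct, which encodes glutaminyl-peptide cyclotransferase, at 0.216 to 3.66 CPM (mean 1.65) in heterozygous libraries against 0.245 to 0.660 CPM (mean 0.383) in deficient ones. Its adjusted p was 0.187 in edgeR, and heterozygous 4 and 5 held its highest values, 3.07 and 3.66 CPM.

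Other ways of fitting called few members. DESeq2 on genotype alone called 3 (H19, Tssc4 and Peg3, against 2.18% of all genes), edgeR with no filter on low counts called 1 (H19, against 0.561%), and edgeR with the deposited grouping in the model called 1 (H19, against 0.54%). Peg3 had an unadjusted p under 0.05 in 24 of 24 alternatives and Tssc4 in 23, Igf2r in 20, Impact in 19, Kcnq1ot1 in 15, Dlk1 in 13, Ube3a in 10 and Zim1 in 9. No named member changed direction in any of these 24, which reuse the libraries in which the members were chosen. Within single levels of the deposited grouping, 2 did change direction. The difference of mean log2 CPM was 0.21 for Dlk1 in the second level and -0.91 for Phlda2 in the first.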

How the data were processed

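RNA sequencing counts, TPM and a comparison table were used, all as deposited by the authors. Reads were trimmed with Trim Galore 0.5.0, aligned with HISAT2 2.1.0 to GRCm38 and counted with featureCounts (Subread 1.6.2), per the submitters' processing notes, and the authors deposited whole-number counts per gene. The sources used here do not give its strand or multi-mapping settings. The authors also deposited TPM, with StringTie 1.3.3b among the tools noted. Those deposited TPM equal the count over 1 number per gene and 1 per library (20977 genes), and the number per gene had a Spearman correlation of 0.0956 with exon length and of 1 with the place of that length in a text sort. They were therefore not used to compare genes, and TPM were recomputed from counts and GENCODE M21 exon lengths (55450 of 55536 genes), a change from the planned levels. The authors' deposited table holds a log2 fold change and its error, a score (Wald statistic), a mean normalized count signal and p-values before and after adjustment, per the file headers.

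Counts were tested with edgeR 4.0.16 (R 4.3.3), quasi-likelihood on genotype, after edgeR's expression filter and TMM scaling (a trimmed mean of M-values), with Benjamini-Hochberg adjustment over 19244 genes. The filter removed Magel2, Rtl1 and Dio3. SE is the fold change over the square root of F. Within-batch values are differences of mean log2(CPM + 0.5). Tests were tried on simulated data first. Alternatives were DESeq2 1.42.0, limma 3.58.1 on log2(TPM + 1) and log2(TPM + 0.1), and other scalings and filters. The limma fits used the deposited TPM, not the recomputed ones, so the added constant weighs unequally between genes. Further alternatives had litter date, replicate number or the deposited grouping in the model, or left out single libraries, dates or the third level. Members and lists were chosen with earlier results of these data known. Members were named library by library where unadjusted p was under 0.05, genotypes did not overlap, or the deposited table called them, and others by level.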

Additional observations from a re-analysis of the deposited data

Results flagged for a closer look

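In 5 of the 20 groups of 5 libraries checked for the members given library by library, 1 library lay farther from the rest than Dixon's 95% limit, which chance passes in about 1 of 20 groups. Phlda2 was 15.6 CPM in heterozygous 1, with the nearest heterozygous library at 3.12 CPM. Peg3 was 238 CPM in deficient 3, with the nearest at 176 CPM. Zim1 was 8.80 CPM in deficient 3, with the nearest at 5.06 CPM, and 1.77 CPM in heterozygous 3, with the nearest at 3.21 CPM. Impact was 12.0 CPM in deficient 5, with the nearest at 7.73 CPM.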

How the results depend on the processing

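The count of members called, 0 in edgeR, was 1 with no low-count filter, 3 in DESeq2, 1 with the deposited grouping as covariate, and 0 to 1 with each library left out in turn. The members higher at an unadjusted p under 0.05 were 6 in the main fit, against 7.45% of all genes. They became 2 without the second litter date (against 2.33%) and 3 without the third litter date (against 4.64%). They became 9 with the deposited grouping as covariate (against 9.77%) and 8 without the third level of that grouping (against 6.01%). With each library left out they were 3 to 8, against 4.99% to 11.1%. The 3 lower members, against 9.13% of all genes in the main fit, became 5 with no filter (against 5.79%). There were 5 in limma on log2(TPM + 1) (against 9.73%) and 6 with litter date in the model (against 10.5%). Without the first date there were 5 (against 10.1%), and without the second 1 (against 2.25%). With each library left out there were 1 to 5, against 6.3% to 11.9%. The 3 members without overlap, against 3.53% of all genes, became 8 without the third level of the deposited grouping (against 11.3%). There were 7 without the first date (against 18.6%) and 6 without the third date (against 10.8%). With each library left out there were 3 to 6, against 3.96% to 9.25%. In the deposited TPM, which the limma fits used, the members without overlap were Blcap, Peg3 and Tssc4, and H19 overlapped. The median log2 fold change of the members, 0.14 in the main fit, moved by less than the replicate spread of 0.162 in all 24 alternatives. That spread is wider than the median itself, so a median of 0 would also lie within it. The median was -0.006 in limma on log2(TPM + 1), 0.002 on log2(TPM + 0.1), 0.01 without heterozygous 3 and 0.21 without the third level of the deposited grouping. The cause of these shifts was not tested, beyond the fewer libraries in a fit.

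Correlations of same-numbered deviations were 0.19, 0.06, 0.15, -0.31 and 0.64 for replicates 1 to 5. Libraries numbered 1, 3 and 5 shared a litter date between genotypes, and those numbered 2 and 4 did not. Whether replicate numbers pair the libraries was not tested, since differently numbered libraries were not set beside these. With the replicate block, 0 members were called and the median was 0.11. At an unadjusted p under 0.05 in that fit, 7 were higher (against 10.6% of all genes) and 4 lower (against 8.5%). Genes near 1 CPM are limited by depth.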
